A study of Neogale vison with 6 samples.

Results

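The Rag GTPases, the Ragulator scaffold and folliculin form the switch on the lysosome that recruits mTOR complex 1. They were represented here by 7 genes, RRAGA, RRAGB, RRAGC, RRAGD, LAMTOR1, LAMTOR3 and FLCN, chosen by gene symbol from the 24526 genes of the count table. Each symbol matched a single row. The RNA-seq data came from Mv1Lu, an epithelial cell line of mink lung, and comprised 3 libraries from cells left untreated (control) and 3 from cells under cholesterol depletion (CD). For CD, cells were kept for 16 h with 50 μM lovastatin, a statin, which blocks an early step of cholesterol synthesis, together with 50 μM mevalonate, a precursor of cholesterol, in medium with 10% lipoprotein-deficient serum (LPDS). The control cells received none of these, so that the comparison covers statin, mevalonate and serum together. Nothing in the labels says whether libraries of a group came from separate cultures, and the adjusted p-values measure the spread between these libraries, which may be technical.

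As background, Rag GTPases work as heterodimers in which RagA or RagB pairs with RagC or RagD. When amino acids are plentiful, RagA/B is loaded with GTP and RagC/D with GDP, and the dimer binds Raptor and brings mTOR complex 1 to the lysosome, where Rheb activates it. Ragulator tethers the Rags to the lysosomal membrane, and folliculin, bound to an FNIP protein, is the GTPase-activating protein of RagC/D. The folliculin and RagC/D arm also governs whether the transcription factors TFEB and TFE3 are kept in the cytoplasm, and lysosomal cholesterol is known to act on the Rags through SLC38A9 and NPC1.

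The libraries held about 13473800 to 18633800 reads on genes. Expression is given as CPM, the counts per 1000000 reads on genes after TMM scaling, and a gene counts as called where the quasi-likelihood test of edgeR, run over 12148 genes with enough counts, gave a Benjamini-Hochberg FDR below 0.05. Among the checks of the treatment, HMGCS1 and INSIG1, genes of cholesterol synthesis and its control, rose by 3.43 and 1.67 on the log2 scale (FDR 4.17e-07 and 8.48e-06, edgeR). Of the epithelial markers, KRT19 was abundant at 936 CPM in the control, whereas EPCAM and CDH1, the defining epithelial adhesion molecules, had at most 4 and 6 counts in any library. The summed level of 5 epithelial markers was 884 to 1012 CPM in the control and 386 to 541 CPM in CD libraries, nearly all of it KRT19, which fell. CLDN4, a tight junction gene of the same list, rose from 0.603 to 7.03 CPM (log2 fold change 3.55, edgeR FDR 9.61e-06), and ESRP1 was not called (log2 fold change 1.24, edgeR FDR 0.0698). For 6 fibroblast markers it was 310 to 387 and 182 to 232 CPM, and for 4 endothelial markers, nearly all of it TEK, 206 to 221 and 74.9 to 123 CPM. The 3 leukocyte markers found summed to 0.0723 to 0.220 CPM in the control and 0.738 to 0.920 CPM in CD, nearly all of it CD14, which rose with 2, 1 and 4 control counts and 12, 15 and 11 CD counts (log2 fold change 2.37, edgeR FDR 0.00141). PTPRC, the pan-leukocyte marker, had at most 1 count in any library. The part of these shifts in the results was not tested, and a lower amount of a transcript per cell cannot be told apart from fewer cells that express it. CD replicate 3 stood apart from the other CD libraries on the second principal component, which held 12.3% of the variance (37.2 against -30.8 and -7.58). In this library 9.37% of reads were unmapped and 25.4% fell outside genes, against 3.54% and 21.9% in CD replicate 1 and 4.33% and 21.6% in CD replicate 2. The unmapped share of the control libraries was 4.25% to 18.4%.

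None of the 7 genes was removed as too rare. In CD cells, all 4 Rag GTPases, LAMTOR3 and FLCN were higher and LAMTOR1 was lower by the edgeR test. Over all tested genes 47.7% were called, 24.8% higher and 22.9% lower. For each of the 7 genes the CD libraries did not overlap the control libraries, which was the case for 58.0% of all tested genes. The largest rise was that of RRAGB, at 2.97-fold, followed by LAMTOR3 at 1.81-fold, RRAGC at 1.65-fold, RRAGD at 1.46-fold, FLCN at 1.27-fold and RRAGA at 1.23-fold. LAMTOR1 stood at 0.685 of its control level. The median log2 fold change of the 7 genes was 0.54, against 0.06 over all tested genes.

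**Figure D1:**
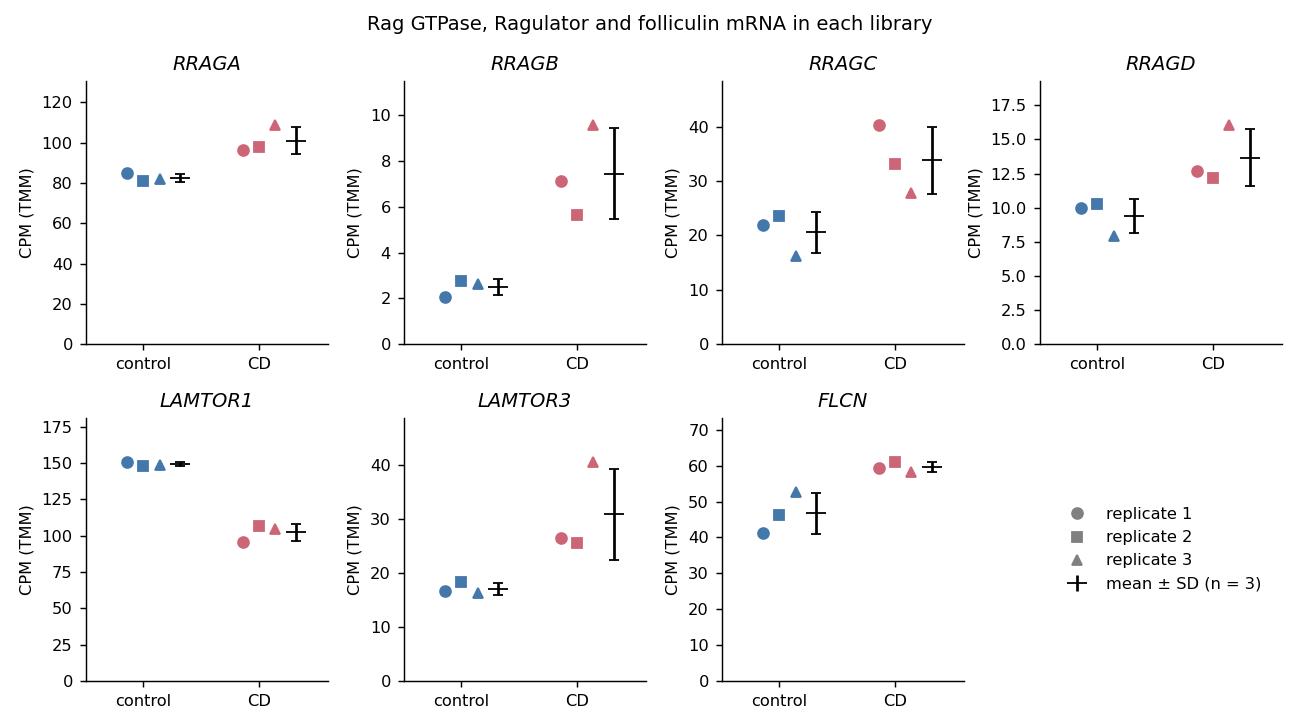
CPM after TMM scaling (linear axis from 0, a scale of its own for each gene) of the 7 genes in the control (blue) and CD (red) libraries, with the symbol marking the replicate number and black bars the mean ± SD of 3 libraries. The CD libraries lay above all control libraries for RRAGA, RRAGB, RRAGC, RRAGD, LAMTOR3 and FLCN, and below them for LAMTOR1.

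Among the partners that bind GTP when amino acids are present, RRAGB (ENSNVIG00000011988) was rare in control cells, with 29, 38 and 48 control counts against 116, 92 and 133 counts under CD. These counts correspond to 2.08, 2.75 and 2.64 CPM for the control, in the order of the replicate numbers, and to 7.13, 5.64 and 9.58 CPM for CD. The lowest CD library held 2.06 times the CPM of the highest control library. The means were 2.49 ± 0.360 CPM for control and 7.45 ± 1.99 CPM under CD (mean and SD over n = 3 per group), and the log2 fold change of 1.57 (95% interval 1.01 to 2.13) was higher than that of 95.5% of tested genes. This call held under all 15 alternative settings, with log2 fold changes between 1.32 (without CD replicate 3) and 1.71 (without CD replicate 2).

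RRAGA (ENSNVIG00000013224), the widely expressed close relative of RRAGB, was at 84.8, 80.7 and 81.8 CPM in the control, compared with 96.2, 98.0 and 109 CPM under CD. The groups were separated, but by a small step, since the highest control and the lowest CD library differed by 11.4 CPM. CD exceeded control by 0.29 ± 0.11 on the log2 scale (SE, edgeR FDR 0.0474). RRAGA was not called under 9 of 15 alternative settings (adjusted p 0.0232 to 0.145 over the 15), DESeq2 among them (log2 fold change 0.27, adjusted p 0.0950). If control replicate 1, 2, 3 or CD replicate 2, 3 was omitted, the log2 fold change of RRAGA was 0.31, 0.27, 0.28, 0.29 or 0.20 and the FDR lay between 0.11 and 0.14 (edgeR).

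The partners on the other side of the dimer, RRAGC and RRAGD, encode the subunits on which folliculin acts. RRAGC (ENSNVIG00000013262) was at 21.9, 23.6 and 16.2 CPM in the control, compared with 40.3, 33.1 and 27.9 CPM under CD, with control replicate 3 the lowest control and CD replicate 3 the lowest CD library. The means of 20.5 ± 3.85 and 33.8 ± 6.24 CPM (mean and SD over n = 3 per group) differed by 0.72 ± 0.19 on the log2 scale (SE, edgeR FDR 0.0106). RRAGC was called under 14 of 15 alternative settings, and without control replicate 3 it had a log2 fold change of 0.57 and an FDR of 0.0559 in edgeR (adjusted p 1.01e-05 to 0.0559 over the 15).

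RRAGD (ENSNVIG00000002154), a known target gene of TFEB, was at 9.96, 10.3 and 7.93 CPM in the control, compared with 12.7, 12.2 and 16.1 CPM under CD. Unlike for RRAGC, CD replicate 3 held the highest value of the group. CD exceeded control by 0.54 ± 0.19 on the log2 scale (SE, edgeR FDR 0.0366), and RRAGD was not called under 6 of 15 alternative settings (adjusted p 0.0230 to 0.16). If control replicate 1, 2, 3 or CD replicate 2, 3 was omitted, the log2 fold change was 0.58, 0.61, 0.43, 0.59 or 0.38 and the FDR lay between 0.0626 and 0.16 (edgeR).

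RagA and RagB take the same place in the dimer, as do RagC and RagD. The reads of each pair of relatives were compared inside each library, where scaling plays no part. These shares are of reads, not per length of transcript, so only their change between libraries can be read. Reads that align to several places were set apart in the table and belong to neither count. RRAGB took 2.39%, 3.29% and 3.13% of the RRAGA and RRAGB reads in the control, by replicate number, compared with 6.90%, 5.44% and 8.09% under CD. The lowest CD share (95% Wilson interval 4.46% to 6.63%) lay above the highest control share (2.41% to 4.48%), although these intervals just met. They cover counting error only. The log2 ratio of RRAGB to RRAGA was -5.04 ± 0.251 in the control and -3.79 ± 0.307 in CD (mean and SD over n = 3 per group), a difference of 1.25, and the groups did not overlap (two-sided exact permutation p = 0.1, below which 3 against 3 cannot go).

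For RRAGC and RRAGD the groups overlapped. RRAGD took 31.3%, 30.3% and 32.9% of the reads of this pair in control libraries against 24.0%, 26.9% and 36.6% under CD, so that CD replicates 1 and 2 were below and CD replicate 3 above all control libraries. The log2 ratio of RRAGD to RRAGC was -1.12 ± 0.0852 in control and -1.30 ± 0.451 in CD cells (mean and SD over n = 3 per group), a difference of -0.18 (two-sided exact permutation p = 0.5). Without CD replicate 3 this difference was -0.43, and without CD replicate 1 it was 0.0022. Added over both relatives, RRAGA and RRAGB went from 84.9 ± 1.77 to 108 ± 8.56 CPM, and RRAGC and RRAGD from 29.9 ± 5.12 to 47.4 ± 4.90 CPM (mean and SD over n = 3 per group). The groups could not overlap in these sums, since they did not overlap in any of the 4 genes.

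**Figure D2:**
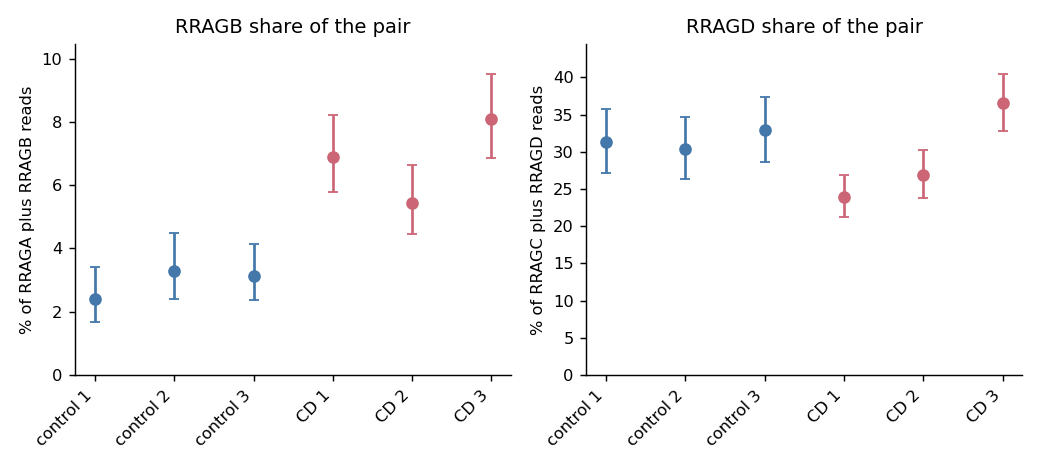
Share of RRAGB in the reads of RRAGA plus RRAGB (left) and of RRAGD in those of RRAGC plus RRAGD (right) in percent, per library, with 95% Wilson intervals for counting error. The RRAGB share lay between 2.39% and 3.29% in the control and between 5.44% and 8.09% in the CD libraries, whereas the RRAGD share of the CD libraries lay on both sides of the control.

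The Ragulator genes LAMTOR1 and LAMTOR3 moved in opposite directions. LAMTOR1 (ENSNVIG00000020491), the lipid-anchored subunit that holds the complex on the lysosome and wraps around the others, was at 151, 148 and 149 CPM in the control, compared with 95.5, 107 and 105 CPM under CD. The control libraries spanned 2.94 CPM, and the step to the nearest CD library was 41.4 CPM. The log2 fold change was -0.54 (standard error 0.10, 95% interval -0.78 to -0.31, FDR 0.00182, edgeR), and LAMTOR1 was called under all 15 alternative settings (log2 fold change -0.61 to -0.49).

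LAMTOR3 (ENSNVIG00000004462), also known as MP1, a scaffold that ties the kinases MEK1 and ERK1 to late endosomes, was at 16.6, 18.4 and 16.3 CPM in the control, compared with 26.6, 25.6 and 40.7 CPM under CD. CD replicate 3 stood well above the other CD libraries. CD exceeded control by 0.86 ± 0.19 on the log2 scale (SE, edgeR FDR 0.00494), and 0.58 without CD replicate 3 (edgeR FDR 8.27e-04). LAMTOR3 was called under all 15 alternative settings (adjusted p 1.08e-04 to 0.0301).

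The log2 ratio of LAMTOR3 to LAMTOR1 inside each library was -3.12 ± 0.101 in control and -1.75 ± 0.355 in CD cells (mean and SD over n = 3 per group), a 2.59-fold difference. That the groups did not overlap in this ratio follows from the opposite directions of both genes. Of the other Ragulator subunits, LAMTOR2 and LAMTOR4 were tested and not called, with log2 fold changes of 0.17 and 0.14 (FDR 0.53 and 0.56, edgeR). Their CD libraries were spread around the control. LAMTOR2 was at 204 to 222 CPM in the control and at 169, 223 and 330 CPM in CD replicates 1, 2 and 3, and LAMTOR4 at 104 to 111 CPM and at 90.6, 108 and 159 CPM. LAMTOR5 was not found by symbol.

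FLCN (ENSNVIG00000024901) was at 41.3, 46.4 and 52.7 CPM in the control, compared with 59.5, 61.2 and 58.3 CPM under CD. Here the control libraries were the more variable ones, with a coefficient of variation of 12.3% against 2.37% in CD. CD exceeded control by 0.35 ± 0.13 on the log2 scale (SE, edgeR FDR 0.0443). FLCN was not called under 7 of 15 alternative settings (adjusted p 0.00170 to 0.21), including DESeq2 (log2 fold change 0.32, adjusted p 0.0754). If control replicate 1, 2 or CD replicate 2 was omitted, the log2 fold change was 0.26, 0.34 or 0.30 and the FDR 0.21, 0.12 or 0.15 (edgeR).

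The binding partners of folliculin, FNIP1 and FNIP2, were not called (log2 fold changes 0.48 and 0.87, FDR 0.32 and 0.0810, edgeR). FNIP2 was at 10.1 to 12.7 CPM in the control and at 32.7, 21.5 and 8.64 CPM in CD replicates 1, 2 and 3, so that it was above the control in CD replicates 1 and 2 and below it in CD replicate 3. FNIP1 had the same order, at 11.2, 5.15 and 3.39 CPM against 4.24 to 5.52 CPM in the control. Without CD replicate 3, both FNIP genes were called higher in edgeR. FNIP2 was also called by DESeq2.

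The CD libraries were thus not alike for these genes. On the log2 scale, relative to the control mean, FLCN differed by only 0.068 between the CD libraries, LAMTOR1 by 0.16 and RRAGA by 0.18. The range was 0.75 for RRAGB, 0.67 for LAMTOR3, 0.53 for RRAGC and 0.39 for RRAGD, and 1.90 for FNIP2. RRAGA, RRAGB, RRAGD, LAMTOR3, LAMTOR2 and LAMTOR4 were highest in CD replicate 3, while RRAGC, FLCN, FNIP1 and FNIP2 were lowest in it. Over all tested genes, the coefficient of variation was higher in CD than in control for 76.5%, with medians of 17.03% and 8.80%. Without CD replicate 3, 5 of the 7 genes were called, with RRAGA and RRAGD not called, while over all genes 58.6% were called.

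**Figure D3:**
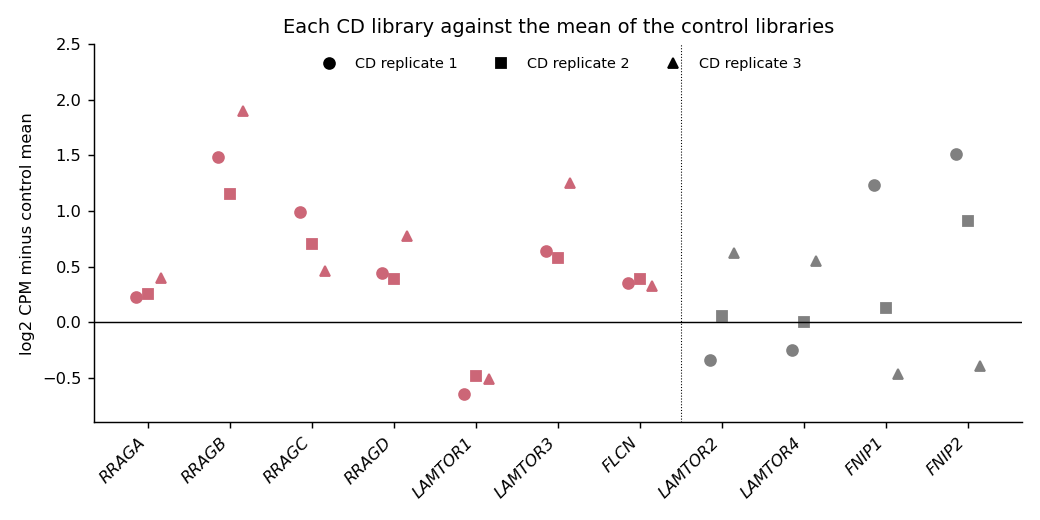
Log2 CPM of each CD library minus the mean of the control libraries, for the 7 genes (red) and, right of the dotted line, the other Ragulator and FNIP genes tested (grey), with the symbol marking the CD replicate. The CD libraries of FLCN lay within 0.068 of each other, whereas those of FNIP2 spanned 1.90, with CD replicate 3 below the control.

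Of all 21 pairs that can be made of the 7 genes, 14 had a ratio inside the library that did not overlap between the groups (two-sided exact permutation p = 0.1 for each, 0.15 after adjustment over the 21 pairs). The 6 ratios with LAMTOR1 had to be among them, since its CD libraries lay below and those of the other 6 genes above all control libraries. Of the 15 ratios without LAMTOR1, 8 did not overlap, and 5 of these were all those with RRAGB, which was higher in CD relative to each of the other genes. The share among pairs of other genes was not computed, and the count is given as a description. The ratio of RRAGC to RRAGA, RRAGD to RRAGA and FLCN to RRAGA overlapped, as did those of RRAGD, LAMTOR3 and FLCN to RRAGC and of FLCN to RRAGD. In the order of the log2 fold changes, the neighbours LAMTOR3 and RRAGC, RRAGC and RRAGD, RRAGD and FLCN, and FLCN and RRAGA were thus not separated from each other by these ratios.

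Other genes of the pathway were followed with lists written from general knowledge. Of 61 such genes apart from the 7, 49 were found in the table and 47 were tested. The edgeR test called 10 of these as higher in CD and 7 as lower, or 36.2% of those tested against 47.7% of all genes, and their median log2 fold change was 0.14. Of the 10 higher genes, 5 were from the list of the MiT/TFE program, and without that list 5 of 40 were higher and 7 lower, with a median of 0.049. Without CD replicate 3, 16 were higher and 9 lower, with FNIP1, FNIP2, NPC1, MITF and TFE3 among the additional higher genes. In that fit 58.6% of all tested genes were called. With any control library or CD replicate 2 omitted, 4 were lower, MTOR, AKT1S1 and NPRL2 being lost. Those fits called 35.9% to 41% of all tested genes.

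Upstream of the Rags, GATOR1 is the GTPase-activating complex of RagA/B, GATOR2 its inhibitor and KICSTOR its anchor on the lysosome. Of 2 GATOR1 genes tested, NPRL2 fell, from 38.3 ± 0.999 to 28.5 ± 2.83 CPM (mean and SD over n = 3 per group), and NPRL3 was not called (log2 fold change 0.13). NPRL2, at a log2 fold change of -0.43 (edgeR FDR 0.0211), was not called under 6 of 15 alternative settings (adjusted p 3.61e-04 to 0.0802), among them the omission of any control library or of CD replicate 1 or 2, with log2 fold changes of -0.54 to -0.36 over the 6 libraries left out. Of 4 GATOR2 genes WDR24 fell from 240.1 ± 9.80 to 148 ± 15.7 CPM (mean and SD over n = 3 per group; -0.70 ± 0.12 on the log2 scale with its SE, edgeR FDR 7.91e-04). SEC13, SEH1L and WDR59 were not called, with log2 fold changes of -0.28, -0.072 and -0.025. None of the 4 KICSTOR genes was called in edgeR, against 47.7% of all tested genes. KPTN, ITFG2 and KICS2 had log2 fold changes of -0.046, -0.18 and 0.063. All 4 also had an adjusted p of 0.05 or more in DESeq2, and none had an unadjusted p under 0.05 in edgeR.

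Of the lysosomal proteins that pass amino acid and cholesterol signals to the Rags, none of 3 was called in edgeR. Among all tested genes the share called was 47.7%. SLC38A9, an arginine transporter that binds Ragulator, was at 9.26 ± 0.773 CPM for control and 9.38 ± 0.132 CPM under CD (mean and SD over n = 3 per group), a log2 fold change of 0.021 with a 95% interval of -0.35 to 0.39. NPC1, the lysosomal cholesterol exporter, was at 92.8 to 109 CPM in the control and at 158, 150 and 96.6 CPM in CD replicates 1, 2 and 3 (log2 fold change 0.43, edgeR FDR 0.0683). Its unadjusted p of 0.0352 was the only one of the 3 under 0.05, and DESeq2, which called none of them, gave an adjusted p of 0.0812. The proton-coupled amino acid transporter SLC36A1 had a log2 fold change of -0.13. SKP2, a ubiquitin ligase subunit that targets RagA and better known from the cell cycle, fell to 14.4 ± 0.385 from 25.5 ± 0.688 CPM (mean and SD over n = 3 per group; log2 fold change -0.83, edgeR FDR 7.72e-04).

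BORC, which binds Ragulator and sets the position of lysosomes in the cell, had 1 of 6 tested genes called, against 47.7% of all tested genes. BLOC1S2 rose from 16.1 ± 0.993 to 47.0 ± 14.1 CPM (mean and SD over n = 3 per group), with 40.7, 37.2 and 63.2 CPM in CD replicates 1, 2 and 3, a difference of 1.54 ± 0.20 on the log2 scale (SE, edgeR FDR 1.98e-04). The others had log2 fold changes of 0.53 (BORCS6), 0.34 (BORCS5), 0.22 (KXD1), 0.035 (BORCS8) and 0.0016 (SNAPIN). Of the kinases that LAMTOR3 scaffolds, MAP2K1 (MEK1) rose from 28.6 ± 0.868 to 48.2 ± 5.48 CPM and MAPK3 (ERK1) from 124 ± 9.37 to 216 ± 20.8 CPM (mean and SD over n = 3 per group). Their log2 fold changes were 0.75 and 0.80 (FDR 0.00107 and 3.85e-04, edgeR), both called under all 15 alternative settings.

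In the related complex of C9orf72, built around DENN proteins like folliculin, WDR41 rose from 9.70 ± 0.733 to 15.9 ± 1.89 CPM (mean and SD over n = 3 per group; log2 fold change 0.71, edgeR FDR 0.00622) and SMCR8 was not called (-0.75, FDR 0.16, edgeR). SMCR8 was at 24.5, 15.3 and 5.04 CPM in CD replicates 1, 2 and 3, and between 23.9 and 27.8 CPM in the control.

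On the receiving side of the switch, 4 of 8 genes were lower in CD and the others were not called, so that the share called was near the 47.7% of all tested genes, of which 22.9% were lower. RPTOR, the subunit that the Rags bind, fell from 74.1 ± 12.01 to 40.5 ± 11.96 CPM (mean and SD over n = 3 per group), with 47.8, 47.1 and 26.7 CPM in CD replicates 1, 2 and 3. Its partner MLST8 fell from 63.9 ± 3.67 to 43.8 ± 2.82 CPM (log2 fold change -0.54, edgeR FDR 0.00372). Both were called under all 15 alternative settings. MTOR (-0.70, FDR 0.0448, edgeR) and AKT1S1 (-0.41, FDR 0.0403, edgeR), the inhibitory subunit PRAS40, were not called under 7 and 6 of the 15 (adjusted p 4.74e-04 to 0.163 and 1.89e-05 to 0.125). Both lost the call when any control library or CD replicate 2 was omitted, and AKT1S1 also without CD replicate 1. With a library left out, the log2 fold change lay between -0.94 (without CD replicate 1) and -0.45 (without CD replicate 3) for MTOR, and between -0.58 (without CD replicate 3) and -0.26 (without CD replicate 1) for AKT1S1. RHEB (0.31), RHEBL1 (0.39), TSC1 (-0.24) and TSC2 (-0.089) were not called, these values being log2 fold changes.

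Of the MiT/TFE factors that bind the Rags, TFEB rose from 9.24 ± 1.57 to 15.5 ± 1.69 CPM (mean and SD over n = 3 per group; 0.75 ± 0.18 on the log2 scale with its SE, edgeR FDR 0.00764). Neither TFE3 (log2 fold change 0.29, edgeR FDR 0.0542) nor MITF (0.56, edgeR FDR 0.14) was called. TFEC had 0 counts in all 6 libraries. Of the listed genes of the MiT/TFE program, 5 of 7 tested were higher, where 24.8% of all tested genes were, including GPNMB, a gene known to rise when folliculin is lost, which went from 33.8 ± 1.73 to 60.3 ± 15.9 CPM (mean and SD over n = 3 per group; log2 fold change 0.84, edgeR FDR 0.00474). The others were SQSTM1, WIPI1, UVRAG and ATP6V1H, with log2 fold changes of 2.32, 1.71, 1.12 and 0.96. ATP6V0D1 (0.21) and MCOLN1 (-0.21) were not called, and PPARGC1A had at most 2 counts in any library. SQSTM1 was also singled out by the study in these libraries. Since the list was written with earlier results of these data known, none of these calls is independent evidence.

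**Figure D4:**
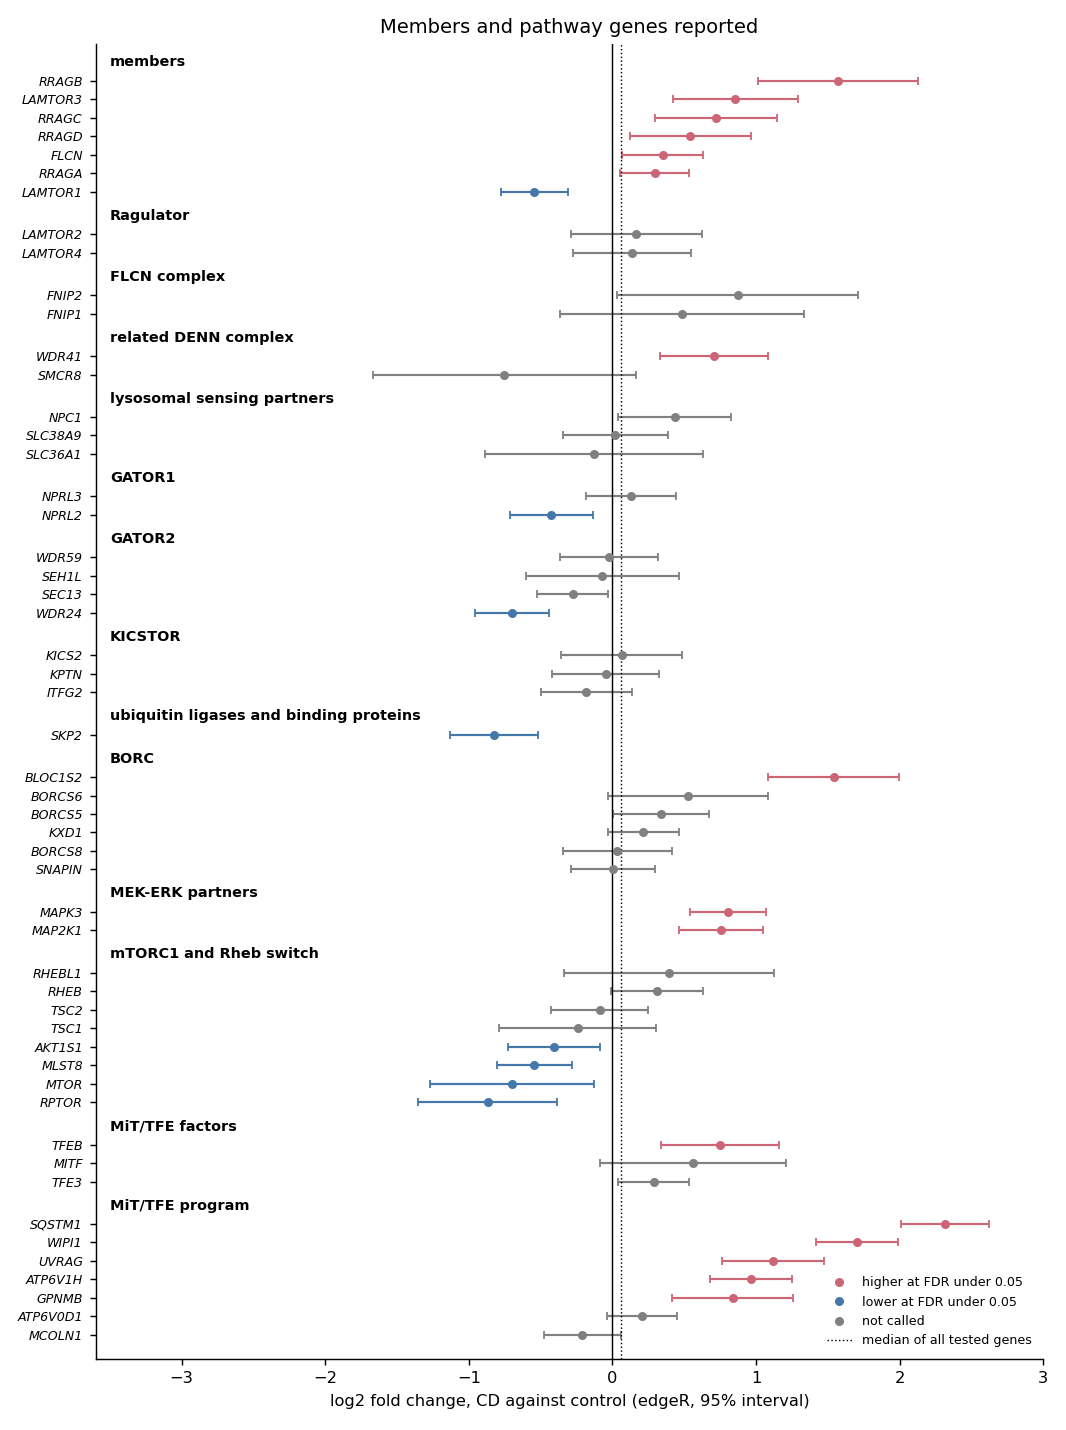
Log2 fold changes (CD over control) and 95% intervals from edgeR for the 7 genes and the pathway genes reported here, grouped by complex. Red marks genes higher, blue genes lower and grey genes not called at an FDR under 0.05, and the dotted line is the median of all tested genes, at 0.06. RRAGB had the highest value of the 7 genes, at 1.57, and LAMTOR1 was the only one of them below 0.

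The genes whose log2 CPM followed each of the 7 most closely over the 6 libraries were also listed, as a description of 8232 or 8233 genes with a symbol and a mean of at least 5 CPM. The points share their libraries, and 79.3% of the variance lay on the first principal component, which separated CD from control. RRAGA was most like CIR1 and the cell cycle inhibitor CDKN1A (Pearson r 0.999 and 0.998), and RRAGB was most like TRAF3IP1 and CAMLG (0.997 and 0.995). LAMTOR1 had the most close followers, with 202 genes at an r of at least 0.99, led by the replication factor subunit RFC2 and by TENT5B (0.9996 and 0.9993). LAMTOR3 was most like NUCB2 and TPT1 (0.999 and 0.998) and RRAGD like LIAS and SUGT1 (both 0.996). RRAGC and FLCN had 1 gene each at that level, WASHC5 and SPY2 (both 0.991), followed by INT7 and RABEP1 (both 0.989). Among the 7 genes themselves, r with RRAGB was 0.96 for LAMTOR3, 0.94 for RRAGA, 0.89 for RRAGD, 0.85 for FLCN, 0.74 for RRAGC and -0.94 for LAMTOR1.

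**Figure D5:**
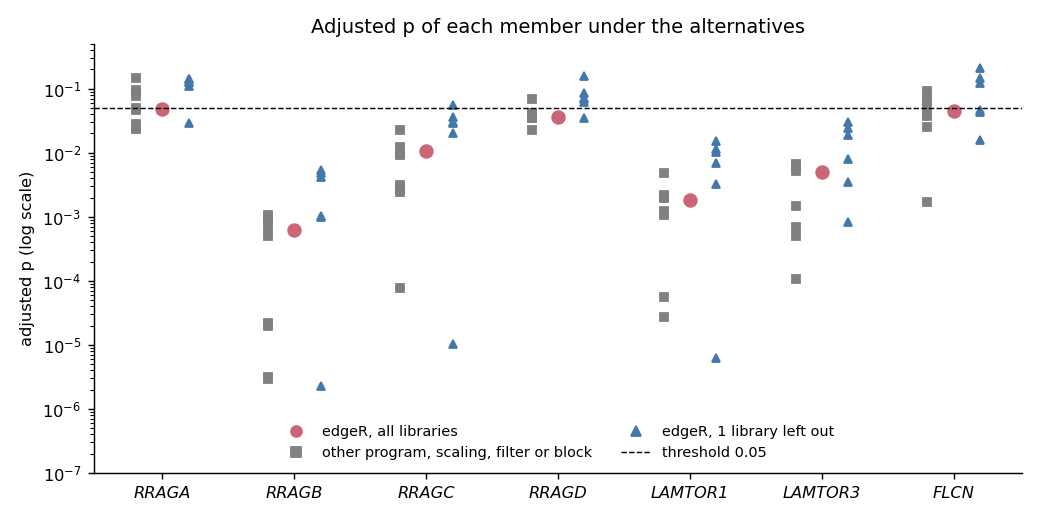
Adjusted p of each of the 7 genes (log axis) in edgeR with all libraries (red circles), with another program, scaling, filter or block (grey squares) and with 1 library left out (blue triangles), with the threshold of 0.05 dashed. All points of RRAGB, LAMTOR1 and LAMTOR3 lay under the threshold, and those of RRAGA, RRAGD and FLCN lay on both sides of it, while RRAGC had 1 point above it.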

How the data were processed

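The authors trimmed and filtered the reads with fastp 0.20.1, aligned them to the mink assembly NNQGG.v01 with STAR 2.7.2a and compared the groups with DESeq2 1.30.1 in R 4.0.3. They deposited raw counts per gene for 6 libraries of poly(A) RNA. The counting program and its use of strand are not given in the sources used here, so counts of overlapping or antisense genes, and of close relatives such as RRAGA and RRAGB, are uncertain. The table also holds 4 rows of reads that name no gene, which made up 29.3% to 47.2% of the reads and were left out. The deposited normalized values were not used. Counts were tested with edgeR 4.0.16 in R 4.3.3 (filterByExpr with a minimum count of 10 and a minimum total of 15, TMM, glmQLFit with robust estimation, glmQLFTest, condition as the only term, Benjamini-Hochberg over all genes). The standard error is the log2 fold change divided by the square root of F. Count ratios had 0.5 reads added to each gene. Over all genes the median standard error was 0.18 (log2).

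The 7 genes and the 13 pathway lists were chosen with earlier results of these data known, and no set test was run. Named were the 7 genes, all pathway genes called, those not called where a list had 5 or fewer, and the 2 genes most correlated with each of the 7. The 15 alternatives were DESeq2 1.42.0, limma 3.58.1 voom with and without library weights, 3 other scalings, no filter, a stricter filter (50 counts in 3 libraries), a block for replicate number, and each library left out. The fit was tested on simulated data, in which the share of false calls came out above the nominal FDR and most of the smallest changes were not called. Neither sequences nor coordinates are given, since the annotation at hand is of another assembly (ASM_NN_V1), and promoter motifs were not analysed here. Values of a few listed genes are not reported here.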

Additional observations from a re-analysis of the deposited data

How the results depend on the processing

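The direction of each of the 7 genes was the same under all 15 alternatives. For the 6 fits that omit a library it could hardly differ, since the groups overlapped in none of the 7 genes. RRAGB, LAMTOR1 and LAMTOR3 were called under all 15 alternatives. RRAGA was not called with DESeq2 (log2 fold change 0.27), with DESeq2 size factors in edgeR (0.27), without the filter (0.29) or with the replicate block (0.29), and FLCN was not called with the same settings (0.32, 0.33, 0.35 and 0.36). With the replicate block RRAGD was not called either (0.54, FDR 0.0698, edgeR). In that fit 4 of the 7 genes were called, against 44.5% of all tested genes. Over the 6 fits that omit a library, log2 fold changes ranged between 0.20 and 0.34 for RRAGA, 0.57 and 0.83 for RRAGC, 0.38 and 0.61 for RRAGD, and 0.26 and 0.44 for FLCN. The cause of these losses was not tested. Whether libraries with the same replicate number belong together cannot be told from 3 libraries per group. Deviations from the group mean of control and CD libraries with the same number had correlations of -0.024, -0.33 and -0.18. The block changed the numbers of all called genes from 3016 higher and 2784 lower to 2772 and 2636. None of the control libraries correlated best with the CD library of its own number. The log2 ratio of RRAGB to RRAGA differed by 1.11 to 1.42 with a library left out. That of RRAGD to RRAGC lay between -0.43 and 0.0022, the latter without CD replicate 1. At an FDR of 0.01, 2006 genes were higher and 2036 lower, so that the larger number was on the other side. Library weights gave 18 higher pathway genes in place of 10, while the share called over all tested genes went from 47.7% to 61.2%. With a library left out, the pathway genes numbered 10 to 16 higher and 4 to 9 lower, with 4 lower without control replicate 1, 2 or 3 or CD replicate 2. The share of all tested genes called in these fits was 35.9% to 58.6%. Only 3 libraries per group and a median standard error of 0.18 on the log2 scale limit what could be called among small changes.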
